A study of Mus musculus with 2 samples.

Results

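The nuclear genes of the mitochondrial respiratory chain were followed across the cell classes of the mouse testis. Members were taken by symbol: every gene starting with Nduf, Uqcr or Atp5, or with Cox and a digit from 4 to 8, together with Sdha, Sdhb, Sdhc, Sdhd, Cycs and Cyct, while symbols with -ps were left out. This gave 94 members among 36547 genes, all 94 of them listed in both tables. They comprised 36 genes of complex I, 8 Ndufaf genes for complex I assembly factors, 4 of complex II, 8 of complex III, both cytochrome c genes, 20 of complex IV, 15 of complex V (ATP synthase) and Atp5s, the ATP synthase coupling factor B. The Ndufaf genes and Atp5s encode no core subunit of the chain, and subunits under other symbols, such as Cyc1 of complex III, are outside the rule.

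The study compared testes of WT and Alkbh5 knockout (KO, Alkbh5-/-) C57BL/6 mice by single-cell RNA sequencing, in 1 library per genotype. Mice were 12 weeks old. Alkbh5 encodes an RNA demethylase that removes N6-methyladenosine, and it was inactivated in the whole animal, somatic cells included. The methods describe testes of several mice per genotype, while the tables hold a single library each, so the spread between animals cannot be given.

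The WT library held 5756 barcodes and 80283221 unique molecular identifiers (UMIs), and the KO library 7012 barcodes and 82056760 UMIs. Median UMIs per barcode were 10905.5 and 9117.5, and 45 barcode sequences occurred in both libraries. Alkbh5 itself had 607 UMIs in WT and 5 in KO. The 16 clusters were named from marker genes without use of the members, and names mean cells like that type. Each name rested on at least 10 detected markers except the late-stage round spermatids, with 4 of 12. Classes differed in size between the libraries: 160 WT and 926 KO spermatogonia, 62 and 262 early spermatocytes, 577 and 545 late spermatocytes, 2425 and 1315 sperm, 96 and 1183 Leydig cells, and 48 and 468 Sertoli cells. The sperm class joined 3 clusters, with Prss58, Tnp1 or Spem1 among their leading genes. In this order they held 840, 736 and 849 WT cells and 689, 346 and 280 KO cells, so its makeup differed between the libraries. The class was not divided into elongating spermatids and mature sperm. The 24 WT macrophages and 1 WT endothelial cell were too few for a comparison, so macrophages are given as levels only and endothelial cells are not described further.

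Levels are UMIs of a gene per 1000000 UMIs of a class (CPM) in a library, with exact 95% Poisson intervals. Each UMI marks a captured 3′ end, so gene length does not enter when genes are compared. With 1 library per genotype no test was possible, and all intervals cover counting error only. A lower CPM is a lower share of the RNA caught in a class, and less RNA per cell from a gene cannot be told apart from more RNA of other genes. Transcripts of other cells also reached each class. Sperm transcripts (Prm1, Prm2, Tnp1, Tnp2, Smcp, Odf1 and Oaz3) summed to 14540 CPM in WT and 10500 CPM in KO Leydig cells, and to 147500 and 30300 CPM in Sertoli cells. Leydig transcripts (Insl3, Cyp17a1, Hsd3b1, Star and Ptgds) summed to 4.70 to 20.4 CPM in the WT germ cell classes and 57.8 to 199 CPM in the KO ones.

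The respiratory chain carries electrons from complexes I and II through complex III and cytochrome c to complex IV, and complex V makes ATP with the proton gradient that this builds. Most subunits are encoded in the nucleus and join a core encoded in mitochondrial DNA. Several subunits have a second gene whose product replaces the common form in a given tissue, and in male germ cells cytochrome c and complex IV are known for such testis forms. Complex IV is the terminal oxidase, and its small nuclear subunits surround the catalytic core and adjust it. Most genes on the X chromosome are silenced in spermatocytes during meiosis.

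The testis forms followed were Cyct (somatic form Cycs), Cox8c (Cox8a), Cox6b2 (Cox6b1) and Cox7b2 (Cox7b). In GENCODE M21 on GRCm38 these protein-coding genes lie at chr2:76353942-76360450 (Cyct, minus strand), chr6:50562563-50566538 (Cycs, minus), chr12:102899316-102900526 (Cox8c, plus), chr19:7215153-7217616 (Cox8a, minus), chr7:4751792-4753094 (Cox6b2, minus), chr7:30616861-30626151 (Cox6b1, minus), chr5:71442824-71548205 (Cox7b2, minus) and chrX:106015700-106022450 (Cox7b, plus). Each testis form is thus a separate gene and not an isoform, and the Cox7b2 and Cox7b pair is split between an autosome and the X chromosome. The 150 bases before the RefSeq start of these genes (GRCm38.p6) are shown because the members of each pair had opposed levels over the germ cell classes. Sequences run 5′ to 3′ on the strand of the gene, and capitals mark matches to CGTCA, GCATGCGC or CTTCCGG. No entry was at hand for Cox8c.
Cyct: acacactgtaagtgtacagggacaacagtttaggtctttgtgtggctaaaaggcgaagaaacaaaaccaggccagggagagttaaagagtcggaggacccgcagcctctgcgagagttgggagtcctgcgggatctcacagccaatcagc
Cycs: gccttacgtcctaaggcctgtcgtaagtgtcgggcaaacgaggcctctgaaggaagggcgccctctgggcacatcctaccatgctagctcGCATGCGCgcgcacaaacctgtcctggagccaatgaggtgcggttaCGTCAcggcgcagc
Cox8a: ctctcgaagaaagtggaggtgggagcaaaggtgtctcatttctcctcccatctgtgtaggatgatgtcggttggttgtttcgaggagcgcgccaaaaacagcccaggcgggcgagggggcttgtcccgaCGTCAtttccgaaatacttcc
Cox6b2: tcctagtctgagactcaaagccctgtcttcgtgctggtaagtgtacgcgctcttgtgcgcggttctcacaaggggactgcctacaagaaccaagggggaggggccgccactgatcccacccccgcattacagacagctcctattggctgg
Cox6b1: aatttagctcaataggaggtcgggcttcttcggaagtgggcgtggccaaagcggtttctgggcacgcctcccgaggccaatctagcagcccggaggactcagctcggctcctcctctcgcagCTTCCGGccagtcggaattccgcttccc
Cox7b2: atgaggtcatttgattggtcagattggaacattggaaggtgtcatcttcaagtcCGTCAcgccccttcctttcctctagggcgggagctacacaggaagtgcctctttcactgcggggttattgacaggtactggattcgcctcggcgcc
Cox7b: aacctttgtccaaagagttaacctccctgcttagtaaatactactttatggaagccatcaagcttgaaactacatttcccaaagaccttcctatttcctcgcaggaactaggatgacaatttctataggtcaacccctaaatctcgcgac

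The regions are at chr2:76360454-76360603 (Cyct), chr6:50566570-50566719 (Cycs), chr19:7217617-7217766 (Cox8a), chr7:4753095-4753244 (Cox6b2), chr7:30626115-30626264 (Cox6b1), chr5:71548206-71548355 (Cox7b2), chrX:106015550-106015699 (Cox7b). Motifs were searched on both strands in the 250 bases before the start. TGACG, the core of the cyclic AMP response element, or its complement CGTCA, was found in Cycs (14 to 10 bases before the start), Cox8a (21 to 17), Cox6b1 (212 to 208) and Cox7b2 (96 to 92), and not in these letters in Cyct, Cox6b2 or Cox7b. Cycs also held the full element TGACGTCA 169 to 162 bases before the start, which contains both TGACG and CGTCA, and GCATGCGC, the core of the NRF1 site, 60 to 53 bases before it. Cox6b1 held CTTCCGG, an ETS factor site, 28 to 22 bases before the start. Over 76 members with an entry, TGACG or CGTCA occurred in 24 (31.6%), against 17.8% of 32851 promoters of all genes. GCATGCGC occurred in 10 members (13.2%, all promoters 2.26%), CCGGAAG or CTTCCGG in 14 (18.4%, all promoters 6.91%), TGACGTCA in 5 (6.58%, 1.55%) and the MYB site AACTGNC in 5 (6.58%, 10.6%). A member counted when any of its entries matched (81 entries for 76 members), while the shares of all promoters count single entries, so the units differ. These are matches of letters, and binding was not measured.

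Taken as a whole, members made up the largest share of germ cell RNA in late spermatocytes. They took 3.25% of the UMIs of WT spermatogonia, 3.25% of early spermatocytes and 4.17% of late spermatocytes (95% Clopper-Pearson interval 4.15 to 4.18). Early-, mid- and late-stage round spermatids had 2.82, 1.68 and 0.822%, and sperm 0.453%. In KO the shares in the same order were 3.24, 2.925, 4.26, 2.80, 1.64, 0.806 and 0.493%. Leydig cells, which make steroid hormones partly in their mitochondria, had 4.33% in WT and 3.97% in KO. Sertoli cells had 1.29% in WT and 2.05% in KO. In both libraries late spermatocytes therefore held a share close to that of Leydig cells, and each later germ cell class held less than the one before it. Within the 3 sperm clusters (Prss58, Tnp1 and Spem1) the shares were 0.589, 0.401 and 0.317% in WT and 0.576, 0.396 and 0.3535% in KO. Per cell, WT late spermatocytes carried a mean of 823.7 member UMIs and WT sperm 47.9. When every cell was thinned to 5729 UMIs, the median number of members detected per cell was 61 in spermatogonia of both libraries, 57 in WT and 58 in KO late spermatocytes, and 15 and 16 in sperm. Without thinning the same medians were 67 and 65, 73 and 73, and 20 and 21.

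The complexes did not move together. Complex IV, the oxidase, took 1.03% of UMIs in WT spermatogonia and 1.73% in WT late spermatocytes, and 1.03 and 1.73% in KO. Complex V went the other way, from 0.734 to 0.533% in WT and from 0.754 to 0.562% in KO. Within complex IV, Cox8c, Cox6b2 and Cox7b2 had 296, 268 and 397 CPM in WT spermatogonia and 4296, 2211 and 2502 in late spermatocytes. Of 16 members counted in WT, 5 were at least 2-fold higher in late spermatocytes and 5 at least 2-fold lower (median log2 ratio 0.125). In KO 5 and 6 of 17 were (-0.147). All genes had 3434 higher and 7410 lower of 14688 in WT, and 3791 and 7866 of 17028 in KO. The summed rise was thus not a rise of most members. Complex I, the NADH dehydrogenase, went from 0.937 to 1.12% in WT, and complex III, which hands electrons to cytochrome c, from 0.367 to 0.498%. The 8 complex I assembly factors went from 0.0705 to 0.136% in WT. Complex II, which also belongs to the citric acid cycle, stayed at 0.0580 and 0.0516% in WT and 0.0627 and 0.0588% in KO. In sperm the order had changed. Complex I (0.139% in WT, 0.148% in KO) and complex V (0.133 and 0.143%) were then above complex IV (0.0963 and 0.106%).

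**Figure D1:**
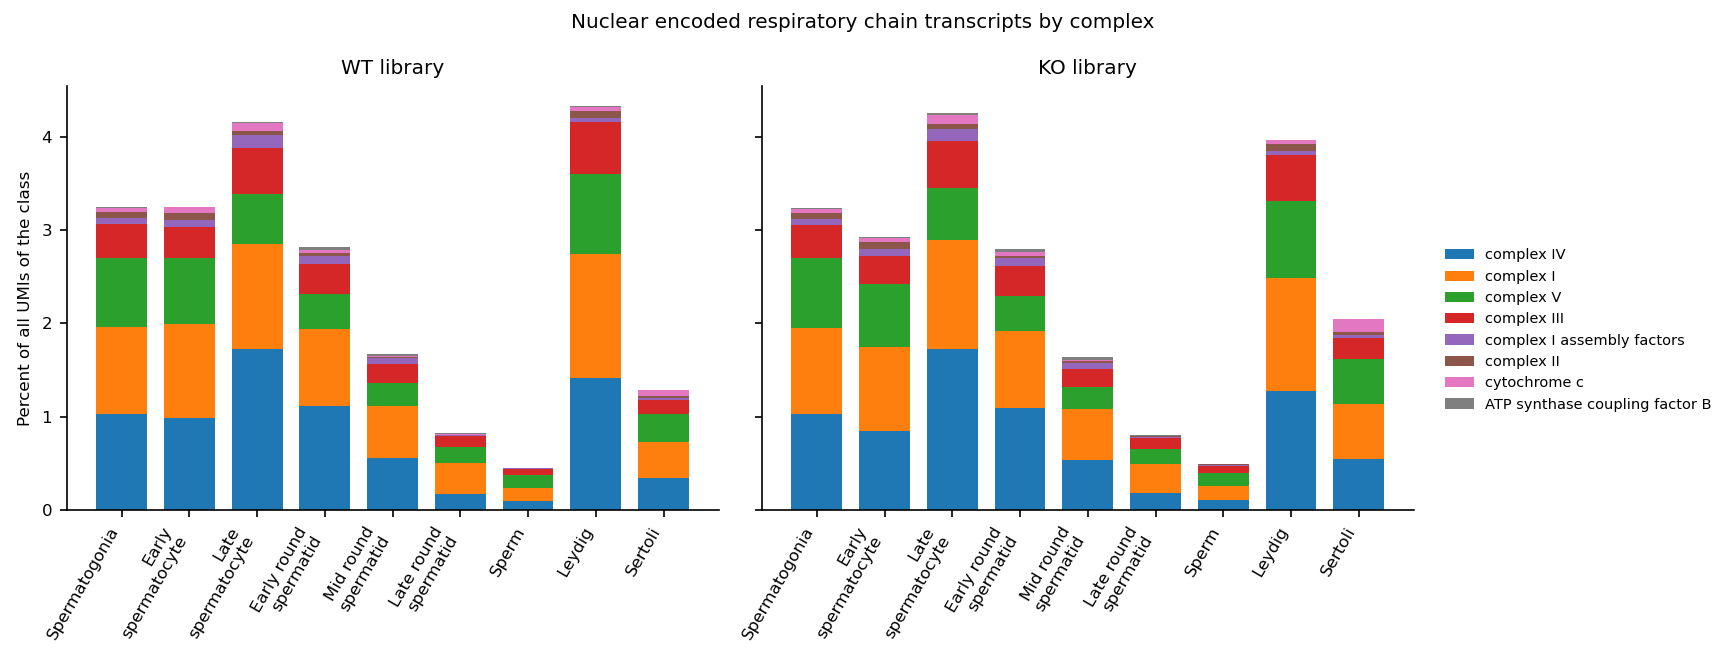
Stacked bars give the percent of all UMIs of a cell class that came from members, by complex, in the WT library (left) and the KO library (right). Late spermatocytes (4.17% in WT, 4.26% in KO) stand above the other germ cell classes, with complex IV in blue as their largest part, and sperm are lowest (0.453 and 0.493%).

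Single members took different courses over the germ cell classes. Of 90 members with at least 100 UMIs in the WT library, 31 had their highest level in late spermatocytes, 29 in spermatogonia and 22 in early spermatocytes, with the other 8 in round spermatids. In sperm 68 of the 90 were at their lowest, and in KO 71 of 90. The classes of highest and lowest level are not given for all genes, so these counts have no background beside them. From WT spermatogonia to late spermatocytes 15 of the 90 were at least 2-fold higher and 19 at least 2-fold lower, with a median log2 ratio of -0.12 (all 14688 genes, -1.04). Of all 14688 genes, 3434 were at least 2-fold higher and 7410 at least 2-fold lower in this step. From late spermatocytes to sperm 83 of 90 were at least 2-fold lower and 2 at least 2-fold higher, with a median of -3.54 (all genes, -1.75). Here 8674 of all 14688 genes were at least 2-fold lower and 3791 at least 2-fold higher. In KO the medians over 91 members were -0.06 (17028 genes, -0.76) and -3.46 (-1.32). At least 2-fold lower in KO sperm were 81 of 91 members and 9130 of all 17028 genes.

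**Figure D2:**
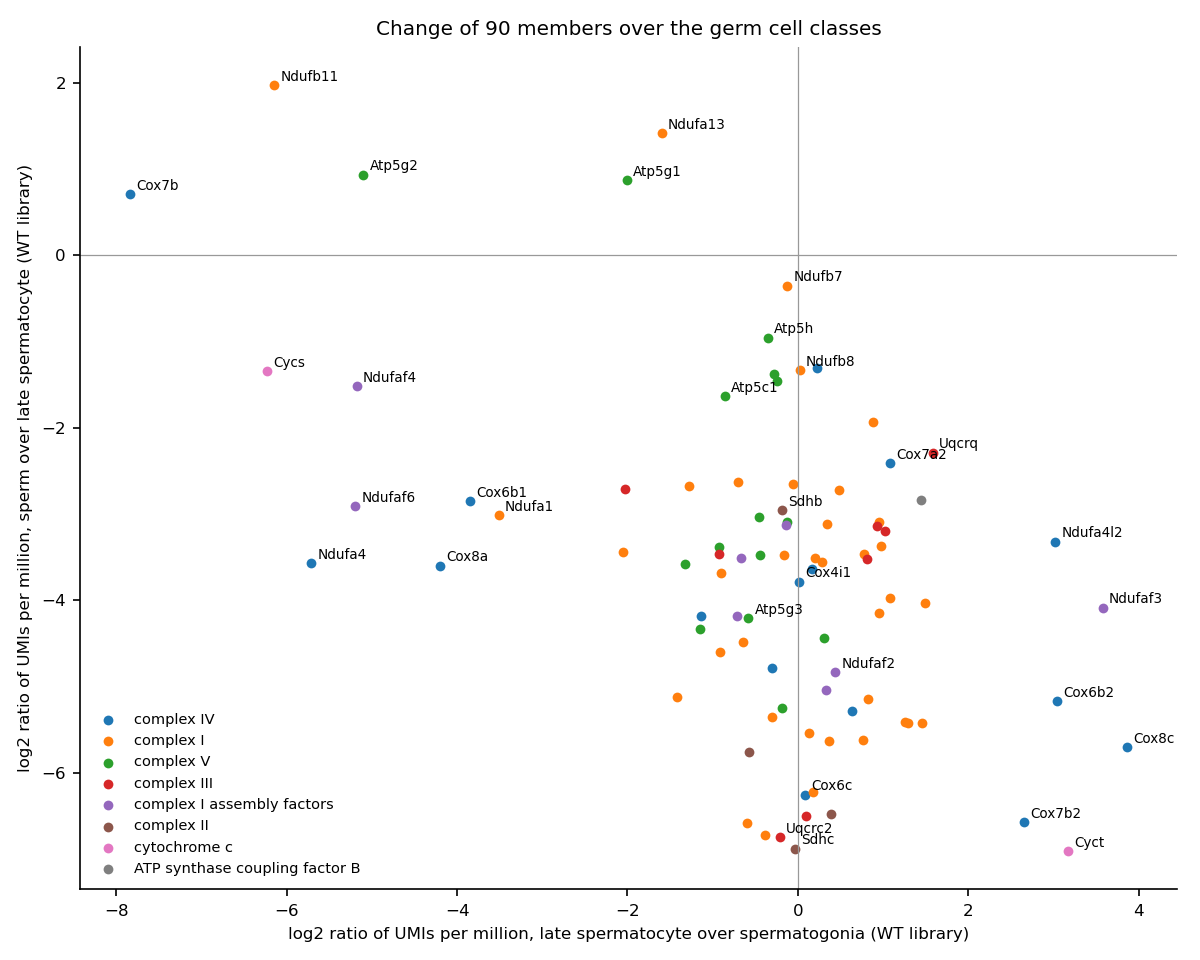
Each point is 1 of 90 members in the WT library. The x axis is the log2 CPM ratio of late spermatocytes over spermatogonia, the y axis that of sperm over late spermatocytes, and colour gives the complex. The testis forms Cyct, Cox8c, Cox6b2 and Cox7b2 lie at the lower right and their somatic forms Cycs, Cox8a, Cox6b1 and Cox7b at the left, and only 5 members lie above 0 on the y axis.

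Cytochrome c shuttles electrons between complexes III and IV, and Cyct encodes its testis form. Cyct had 84.7 CPM in WT spermatogonia (interval 70.4 to 101), 306 in early spermatocytes, 760 in late spermatocytes (744 to 776), 308, 141 and 6.96 in early-, mid- and late-stage round spermatids, and 6.36 in sperm. In KO it had 151, 136, 948, 347, 149, 6.495 and 6.394 CPM in the same order. Cycs had 355 CPM in WT spermatogonia (325 to 387), 308 in early spermatocytes and 4.73 in late spermatocytes (3.56 to 6.18), then 17.0, 9.94, 4.33 and 1.87 CPM. In KO Cycs had 360, 345, 14.7, 16.1, 13.4, 14.0 and 4.78 CPM. The forms thus crossed between early and late spermatocytes in both libraries. Cyct made up 19.3% of cytochrome c UMIs in WT spermatogonia and 99.4% in late spermatocytes (99.2 to 99.5), and 29.5 and 98.5% in KO. In late-stage round spermatids, where both forms were low, its share was 61.7% in WT (37 and 23 UMIs) and 31.6% in KO (31 and 67 UMIs). Cycs was thus the higher form there in KO. In sperm the share of Cyct was 77.25% in WT and 57.2% in KO. Among the classes compared Cycs was highest in Sertoli cells, with 606 CPM in WT and 1294 CPM in KO, where Cyct had 21.4 and 27.2 CPM.

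Cox8c, the testis form of the smallest complex IV subunit, was the most abundant member of the WT library (1292 CPM over all cells). It had 296 CPM in WT spermatogonia (268 to 325), 493 in early spermatocytes, 4296 in late spermatocytes (4258 to 4334), 2178, 729 and 127 in the 3 round spermatid classes and 82.7 in sperm. In KO it had 197, 188, 4327, 2031, 618, 143 and 81.9 CPM. Cox8a had 433 CPM in WT spermatogonia (400 to 468), 87.6 in early and 23.6 in late spermatocytes (20.8 to 26.6), and 1.95 in sperm. In KO Cox8a had 560, 111, 27.5 and 4.70 CPM in these classes. Cox8c was therefore 99.5% of the pair in WT and 99.4% in KO late spermatocytes, and still 97.7 and 94.6% in sperm. In Leydig cells Cox8a had 1011 and 951 CPM.

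Cox6b2 and Cox6b1 encode forms of the subunit that faces cytochrome c. Cox6b2 had 268 CPM in WT spermatogonia, 617 in early spermatocytes, 2211 in late spermatocytes (2184 to 2238), 1461, 842 and 102 in the round spermatid classes and 61.7 in sperm. In KO it had 170, 266, 2032, 1445, 805, 122 and 57.5 CPM. Cox6b1 had 603 CPM in WT spermatogonia, 273 in early and 42.0 in late spermatocytes, and 5.81 in sperm, and 647, 281, 60.8 and 10.7 CPM in KO. Cox6b2 declined less steeply than Cox8c from late spermatocytes to mid-stage round spermatids, and there it was the higher of the testis forms in both libraries. It made up 98.1% of the pair in WT and 97.1% in KO late spermatocytes, and 91.4 and 84.3% in sperm.

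Cox7b2 was the testis form with the highest share before meiosis. It had 397 CPM in WT and 398 CPM in KO spermatogonia, against 60.1 and 85.0 CPM for Cox7b, so that its share of the pair was already 86.9 and 82.4%. Macrophages, which are not germ cells, had shares of 87.0 and 87.4%, so the share in spermatogonia is read beside this background. Cox7b2 then had 1019 CPM in WT early spermatocytes, 2502 in late spermatocytes (2473 to 2531), 1607, 584 and 35.9 in the round spermatid classes and 26.4 in sperm, and in KO 752, 2842, 1828, 613, 28.3 and 30.3 CPM. Cox7b, on the X chromosome, had 3 UMIs in all WT late spermatocytes (0.263 CPM, 0.0542 to 0.768) and 25 in KO (2.63 CPM). In Leydig cells Cox7b had 442 and 446 CPM. All 4 testis forms thus had their highest level in late spermatocytes of both libraries, where each made up 97.1% or more of its pair.

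**Figure D3:**
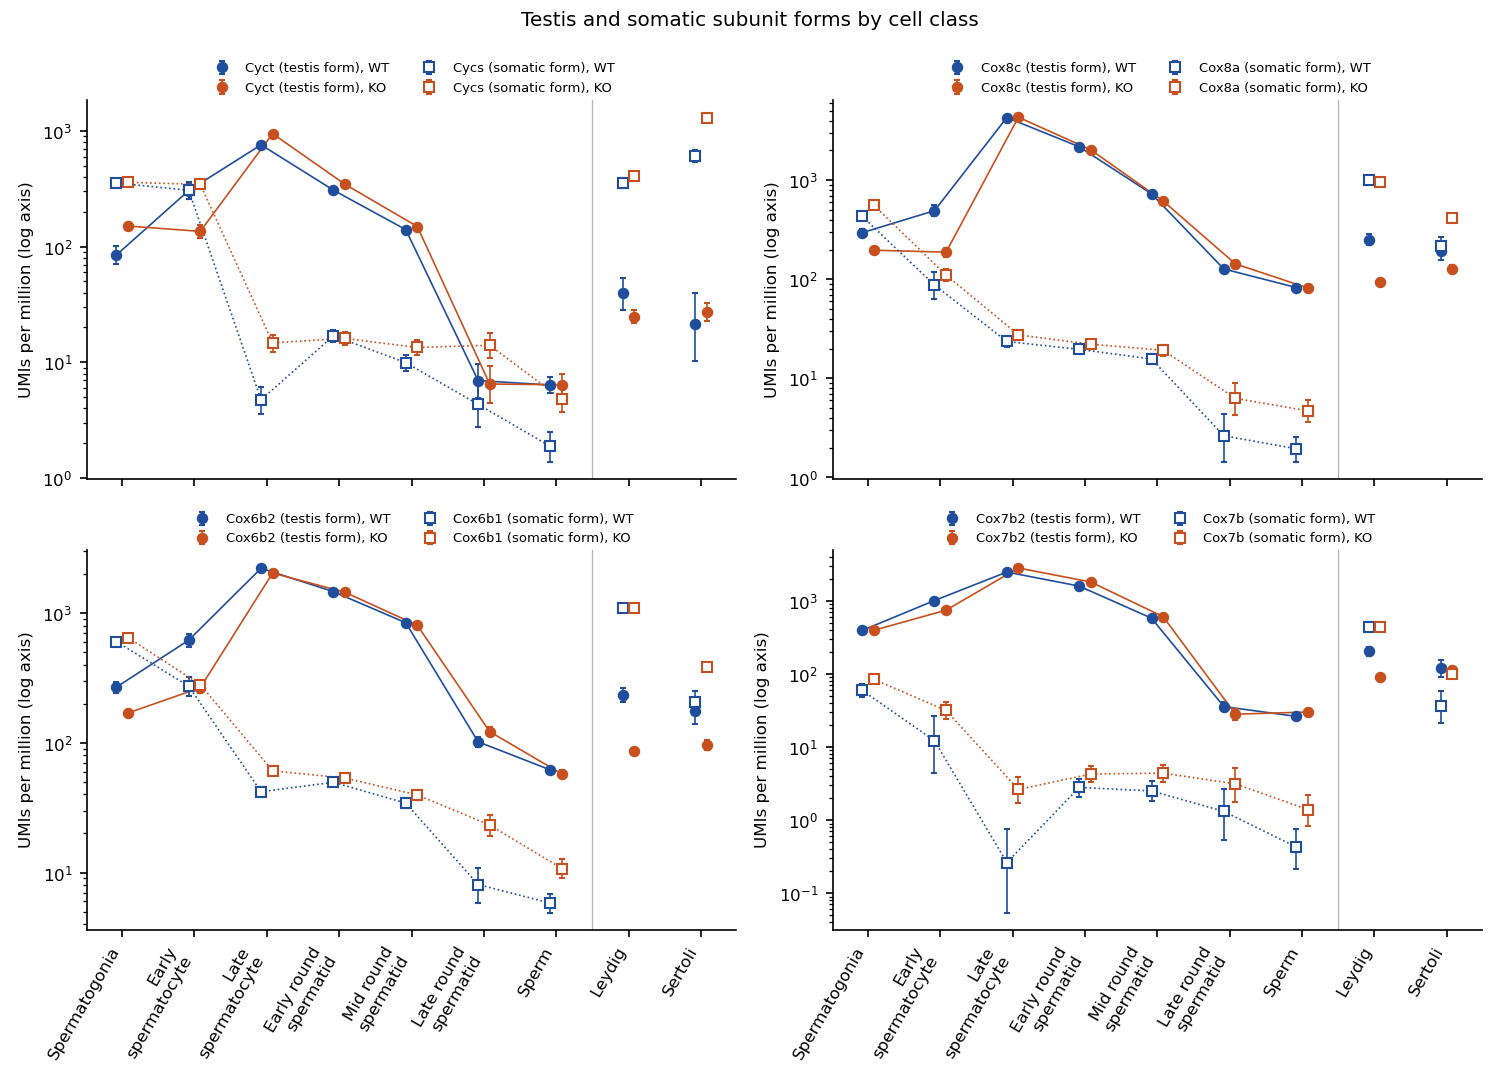
CPM on a log axis for each testis form (filled circles) and its somatic form (open squares) by cell class, in WT (blue) and KO (orange), with exact 95% Poisson intervals. The testis forms peak in late spermatocytes, at 4296 CPM for Cox8c and 760 for Cyct in WT, where the somatic forms have 0.263 to 42.0 CPM in WT and 2.63 to 60.8 in KO.

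The switch held in single cells. With cells thinned to 5729 UMIs, Cox8c had a UMI in 99.8% of WT late spermatocytes, Cyct in 96.8% and Cycs in 2.30%. In WT Leydig cells, which should lack the testis forms, the thinned share with Cox8c was 28.4%, and in WT spermatogonia 42.8%, at median depths of 10004 and 7873.5 UMIs against 17794 in late spermatocytes. Unthinned shares for Cox8c were 100% of late spermatocytes, 32.3% of Leydig cells and 45.6% of spermatogonia. The share in spermatogonia is thus read against a background of this size. For Cycs the order was reverse, with a thinned share of 78.3% in WT spermatogonia and 78.4% in WT Leydig cells. Macrophages, which should lack the testis forms too, had 577.5 CPM of Cox8c in WT and 615 in KO. They had 505 and 545 CPM of Cox6b2, 417 and 630 of Cox7b2, and 121 and 130 of Cyct. The 5 highest of 24 WT macrophages held 71.0% of their Cox8c UMIs. Levels of testis forms in spermatogonia are read beside these as well. Late spermatocytes formed 2 clusters. The cluster with Piwil1 and Pou5f2 among its leading genes had 4783 CPM of Cox8c and 1001 of Cyct in WT, and the other 3900 and 564 CPM. The testis forms took 98.01 to 99.99% of their pairs in both WT clusters.

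In WT spermatogonia and early spermatocytes much of the Cox8c, Cox6b2 and Cyct RNA sat in few cells. The 5 highest of 160 WT spermatogonia held 39.7% of their Cox8c UMIs, and the 5 highest of 62 WT early spermatocytes held 65.3% of Cox8c, 65.4% of Cox6b2 and 72.0% of Cyct UMIs, with medians of 1, 0 and 0 UMIs per cell. In KO the 5 highest of 262 early spermatocytes held 19.9, 26.9 and 26.3%. Without cells called doublets the Cox8c share of its pair in WT spermatogonia was 23.9% in place of 40.6%, and that of Cox6b2 18.5% in place of 30.8%. Cox7b2 had higher medians, of 2 UMIs in spermatogonia and 3 in early spermatocytes of both libraries. The 5 highest WT cells still held 24.4% of its UMIs in spermatogonia and 44.4% in early spermatocytes, and in KO 6.68 and 16.9%. For Cyct the 5 highest WT spermatogonia held 21.8%. Without doublets Cox7b2 had 82.2% of its pair in WT spermatogonia in place of 86.9%. Sperm transcripts in spermatogonia stood at a median of 10.02% of their sperm level in WT and 7.37% in KO, and the testis forms at 11.6 and 11.2% of their late spermatocyte level.

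A further pair showed the same change of forms. Ndufa4 (chr6:11900292-11907497, minus strand) was named as a complex I gene and is now placed in complex IV, and Ndufa4l2 (chr10:127514967-127517154, plus strand) is its paralog. Ndufa4 had 777 CPM in WT and 776 CPM in KO spermatogonia, 436 and 544 in early spermatocytes, 14.8 and 38.3 in late spermatocytes, and 1.25 and 6.61 in sperm. It had the largest spread of all members over the WT germ cell classes, with an SD of 3.62 on the log2 scale over the 7 classes. Ndufa4l2 had 15.7 and 9.35 CPM in spermatogonia, 128 and 121 in late spermatocytes, 122 and 130 in early-stage round spermatids, and 12.8 and 11.0 in sperm. Ndufa4l2 was 1.98% of the pair in WT spermatogonia and 89.6% in late spermatocytes, and 1.19 and 75.9% in KO. Unlike the testis forms above, Ndufa4l2 did not come near the level that its partner had in spermatogonia.

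The paralogs known from muscle and lung were hardly present. Cox4i2, Cox6a2 and Cox8b had 9, 18 and 1 UMIs in the whole WT library, and 44, 49 and 7 in KO. The common forms of the first 2, Cox4i1 and Cox6a1, were abundant. Cox4i1 had 1637 CPM in WT spermatogonia and 1659 in late spermatocytes (KO 1944 and 1756), and Cox6a1 had 3769 CPM in WT Leydig cells and 3007 in KO. Cox7a1, a form of heart and skeletal muscle, reached 49.0 CPM in WT and 27.5 CPM in KO Leydig cells, 5.15% of the Cox7a forms in WT. Cox7a2 had 991 CPM in WT spermatogonia, 2094 in late spermatocytes, 876 in late-stage round spermatids and 394 in sperm, and Cox7a2l, a factor for supercomplex assembly, was among the 5 least variable members with 69.6 to 194 CPM over the WT germ cell classes.

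Atp5g1, Atp5g2 and Atp5g3 encode the same mature c subunit of the ATP synthase ring. Their shares of the 3 changed along the germ cell classes. In WT spermatogonia Atp5g1 made up 60.2%, Atp5g2 13.6% and Atp5g3 26.2%, in late spermatocytes 45.5, 1.20 and 53.3%, and in sperm 94.1, 2.60 and 3.27%. Atp5g1 had 494 CPM in WT spermatogonia, 123 in late spermatocytes, 237 in mid-stage round spermatids and 224 in sperm, and 555, 127, 194 and 166 CPM in KO. Of the 75-base words in the last 500 bases of its transcripts, 35.2% occur in other genes, and for Atp5g2 44.2%, so some of their reads could have been split or lost in counting. In all, 8 of the 94 members shared more than 20% of these words, and of the testis and somatic pairs only Cycs (29.7%) was among them.

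In complex I the members with the highest level in the WT library were Ndufc1 (594 CPM), Ndufa7 (529 CPM) and Ndufv2, a core subunit of the NADH-oxidizing module (429 CPM). Ndufc1 had 480 CPM in WT spermatogonia, 1323 in late spermatocytes and 31.0 in sperm, while Ndufa7 had 567, 795 and 121 CPM. Ndufa13, an accessory subunit also called GRIM-19, ran counter to nearly all others. It had 483 CPM in WT spermatogonia, 159 in late spermatocytes, 117 in early-stage, 257 in mid-stage and 607 in late-stage round spermatids, and 424 in sperm. In KO its levels were 497, 176, 101, 258, 529 and 344 CPM. Ndufb8 and Ndufb7 varied least, with 82.7 to 209 and 107 to 391 CPM over the WT germ cell classes, while Ndufb6 and Ndufc2 were among the 5 most variable, with 1.21 and 2.07 CPM in WT sperm against 115 and 217 in late spermatocytes.

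The 3 members on the X chromosome, Cox7b, Ndufa1 and Ndufb11, were lower in late spermatocytes than in spermatogonia in both libraries. Ndufa1, an accessory subunit needed for complex I assembly, had 194 CPM in WT spermatogonia, 666 in early spermatocytes, 17.0 in late spermatocytes and 2.11 in sperm, and in KO 132, 598, 30.1 and 4.85 CPM. Ndufb11 had 62.1, 57.1, 0.877 and 3.43 CPM in WT and 103, 102, 6.42 and 8.45 in KO. Their median log2 ratio of late spermatocytes over spermatogonia was -6.15 in WT and -4.01 in KO, against -3.48 over 493 genes of the X chromosome in WT and -3.17 over 739 in KO. Of those WT genes 468 were at least 2-fold lower. Leydig cells, in which the X chromosome is active, had 542 and 603 CPM of Ndufa1 and 554 and 596 CPM of Ndufb11. No autosomal paralog of Ndufa1 or Ndufb11 is among the members.

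Among the assembly factors of complex I, Ndufaf3 stood out. It had 67.6 CPM in WT spermatogonia, 151 in early and 807 in late spermatocytes, 295, 123 and 84.8 in round spermatids and 47.6 in sperm. In KO the levels were 43.6, 91.5, 749, 255, 107, 72.3 and 55.6 CPM, with the same peak. Ndufaf2 peaked later, with 212 CPM in WT spermatogonia, 287 in late spermatocytes, 401 in mid-stage and 22.2 in late-stage round spermatids. Ndufaf8 went from 170 CPM in spermatogonia to 154 in late spermatocytes and 17.6 in sperm. Ndufaf6, the least abundant, went from 32.1 CPM in WT spermatogonia to 0.877 in late spermatocytes. Ndufaf3 and Ndufaf6 thus moved in opposite directions within the group.

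The 4 genes of complex II stayed within 2-fold between spermatogonia and late spermatocytes in both libraries. Sdhb, the iron-sulphur subunit, had 275 CPM in WT spermatogonia, 242 in late spermatocytes, 123 in mid-stage round spermatids and 31.3 in sperm. Sdha, the flavoprotein, had 131, 88.4, 15.9 and 1.64 CPM, and the membrane anchors Sdhc and Sdhd had 126, 124, 3.07 and 1.05 CPM and 47.8, 62.5, 1.23 and 0.702 CPM. Sdhb therefore kept a higher part of its level than the other 3 subunits from mid-stage round spermatids on, in KO as in WT (114 and 24.8 CPM in KO). Sdhc was among the 5 most variable members, with an SD of 3.29 on the log2 scale.

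Complex III held the member with the highest level in WT sperm. Uqcrq, a small subunit of the complex, had 759 CPM in WT spermatogonia, 2274 in late spermatocytes, 1437, 973 and 769 in the round spermatid classes and 466 in sperm. In KO it had 584, 2114, 1315, 870, 693 and 512 CPM. Uqcr10 had 350 CPM in WT spermatogonia, 711 in late spermatocytes and 77.6 in sperm, with 1691 CPM in Leydig cells. Uqcrb, which binds ubiquinone, had 499 and 534 CPM before the spermatid classes, 180 in mid-stage and 7.34 in late-stage round spermatids. Uqcrc2, a core protein, had 92.2, 79.6 and 0.741 CPM in spermatogonia, late spermatocytes and sperm.

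The ATP synthase had its largest share in spermatogonia among the germ cells. Atp5j (coupling factor 6) had 826 CPM in WT spermatogonia, 1025 in late spermatocytes and 47.3 in sperm. Atp5e, the epsilon subunit, had 854, 704 and 271 CPM, and Atp5h, subunit d of the stalk, 636, 499 and 258 CPM. In KO sperm the last pair had 303 and 305 CPM. Atp5h was among the 5 least variable members in WT. None of the 15 members of the complex was at least 2-fold higher in late spermatocytes than in spermatogonia, in either library. At least 2-fold lower were 4 of the 15 in WT and 4 in KO. Over all genes 3434 of 14688 were higher and 7410 lower in WT, and 3791 and 7866 of 17028 in KO. Atp5l was listed at 333 UMIs in WT and 684 in KO, while rows that share its 3′ sequence held 810 and 1516, so its level is uncertain. Atp5s had 70.3 CPM in WT spermatogonia, 282 in early-stage round spermatids and 26.8 in sperm.

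Within classes, KO and WT were compared gene by gene. Members detected in 25% or more of cells in 1 of the libraries were counted when their CPM differed by at least 1.5-fold, beside the same count over all such genes. In spermatogonia 3 of 85 members were higher in KO (3.46% of all 4274 genes) and 3 lower (7%). Early spermatocytes had 1 of 84 higher (8.16% of 3873 genes) and 5 lower (10.3%), and late spermatocytes had 2 of 82 higher (3.76% of 5616) and 0 lower (3.31%). None of 77 members was past this size in early-stage round spermatids (higher 3.56%, lower 2.90% of 5339 genes), nor of 69 in mid-stage ones (6.83 and 5.32% of 5620). In late-stage round spermatids 3 of 55 were higher (9.20% of 3806 genes) and 1 lower (5.60%), and in sperm 3 of 36 higher (16.4% of 2387) and 1 lower (3.81%). Leydig cells had 0 of 84 higher (5.99% of 3591 genes) and 4 lower (12.9%). Sertoli cells had 51 of 82 higher (58.9% of 5007 genes) and 3 lower (23.4%). Members past the size were thus about as frequent as genes at large, or less frequent, in each class. Median log2 ratios of members ran from -0.15 to 0.14 in the germ cell classes, where those of all genes ran from -0.05 to 0.11.

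**Figure D4:**
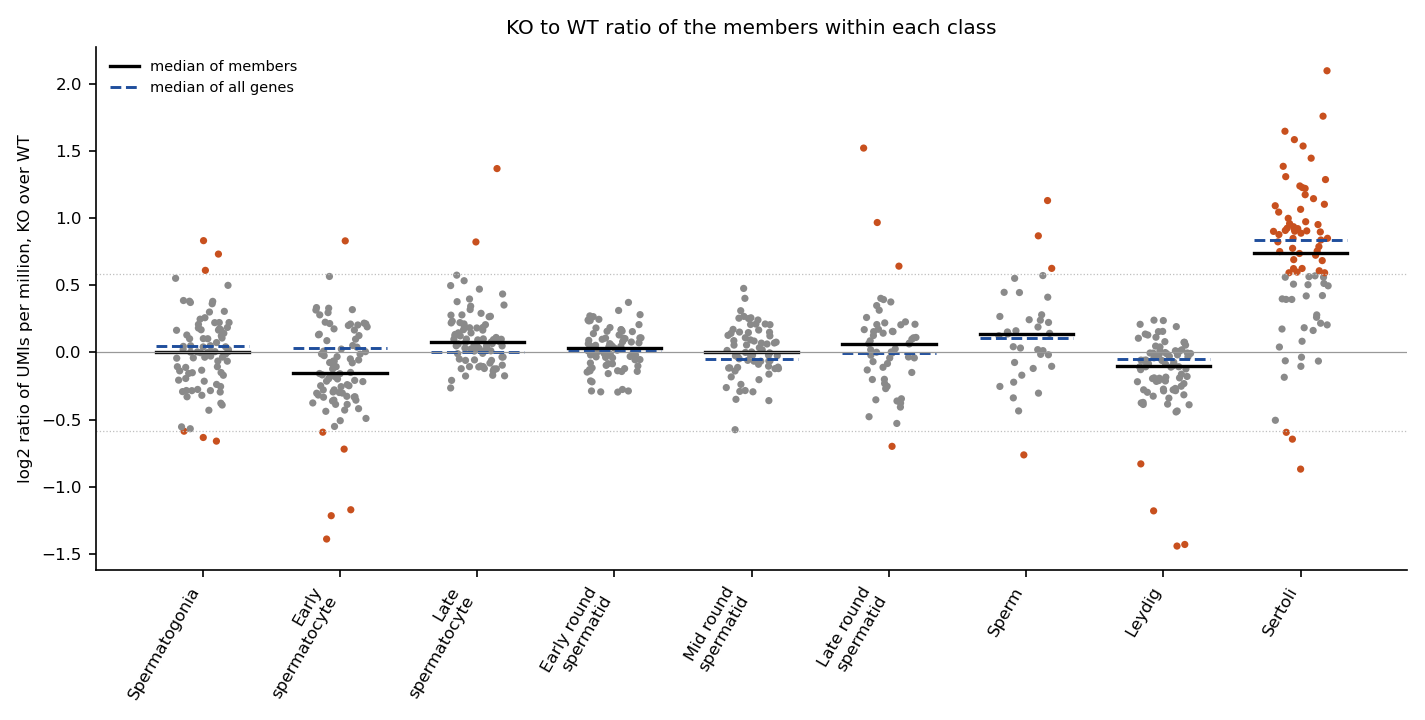
Log2 ratio of CPM, KO over WT, for each member detected in 25% or more of cells in 1 of the libraries, by class. Dotted lines mark a 1.5-fold difference, orange points lie beyond it, and the lines give the medians of members (solid) and of all genes (dashed). In Sertoli cells both medians, 0.74 and 0.84, lie far above 0, and in the other classes both lie between -0.15 and 0.14.

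Testis forms were among the members that differed most in spermatogonia and early spermatocytes. In spermatogonia Cyct was higher in KO, with a log2 ratio of 0.83 (0.56 to 1.11), and Cox6b2 and Cox8c were lower, at -0.66 (-0.83 to -0.49) and -0.59 (-0.74 to -0.43). Ndufaf3 was also lower there (-0.63), while Ndufb11 (0.73) and Atp5g3 (0.61) were higher. Cyct and Ndufb11 were past 1.5-fold under each alternative clustering, cell filter, total and weighting. The others were not: Cox6b2 had -0.53 without doublets and -0.36 with a finer clustering (resolution 0.8), Cox8c -0.49 with equal weight per cell and -0.34 with that clustering, and with members among the clustering genes Ndufaf3 had -0.55 and Atp5g3 0.57. The finer clustering gave a spermatogonia cluster of 129 WT and 672 KO cells and another of 14 WT and 205 KO cells. Ratios are not given for each of these, so the part of class makeup was not tested. In early spermatocytes Cox8c had a ratio of -1.39 (-1.63 to -1.15), Cox6b2 -1.22 (-1.43 to -1.004) and Cyct -1.17 (-1.47 to -0.87). The few WT cells that held most of these UMIs stand beside this, and so do sperm transcripts, at 24010 CPM in WT and 6669 CPM in KO early spermatocytes and at 23490 and 15870 CPM in spermatogonia. Their part in these ratios was not tested. When the members were kept among the genes used for clustering, 34 of the 62 WT and 120 of the 262 KO cells stayed in the early spermatocyte class, and these ratios were -1.27, -1.19 and -0.91. Ndufaf3 (-0.72) and Ndufv3 (-0.59) were the other lower members of early spermatocytes. Ndufb11 was the higher one (0.83, 0.25 to 1.46), followed by Uqcrc2 (0.57) and Cox8a (0.33), which were short of 1.5-fold. In late spermatocytes, where the testis forms are at their peak, the ratios were 0.32 for Cyct, 0.18 for Cox7b2, 0.01 for Cox8c and -0.12 for Cox6b2. In round spermatids and sperm none of the 4 testis forms was past 1.5-fold, with ratios from -0.35 to 0.26.

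In Leydig cells Cox6b2 (log2 ratio -1.44), Cox8c (-1.43), Cox7b2 (-1.18) and Cox7a1 were lower in KO. The first 3 are testis forms, with 234, 251 and 204 CPM in WT and 85.9, 93.2 and 90.2 CPM in KO, and the 5 highest of 96 WT Leydig cells held 67.7, 74.5 and 80.7% of their UMIs. With a finer clustering, which left 77 of the WT cells in the class, the ratio of Cox7b2 was 0.52, that of Cox8c 0.13 and that of Cox6b2 -0.41, and 1 member was then lower. The somatic forms did not differ by 1.5-fold, with Cox8a at 1011 and 951 CPM and Cox6b1 at 1096 and 1093. In Sertoli cells the 48 WT cells carried sperm transcripts at a median of 57.6% of their sperm level, against 14.0% in KO, and all genes shifted by 0.84. The median of members was 0.74 there. Ndufa6 had 124 CPM in WT and 421 in KO (log2 ratio 1.76), Ndufb4 25.7 and 80.6 (1.65), and Uqcrc2 10.7 and 45.9 (2.10) from 5 and 213 UMIs, while Cox6b2 (-0.87), Ndufa13 (-0.65) and Cox8c (-0.60) were lower. The part of sperm RNA in these ratios was not tested.

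In late spermatocytes 2 members were past 1.5-fold, both higher in KO. Ndufa4 had a log2 ratio of 1.37 (1.10 to 1.64) and Ndufa1 of 0.82 (0.56 to 1.09), with the next, Ndufa10, at 0.58. In the Piwil1 cluster (248 WT and 293 KO cells) Ndufa1 had 0.83 (0.52 to 1.15) and Ndufa4 1.06. In the other cluster (329 and 252 cells) Ndufa1 had 0.16 (-0.41 to 0.72) and Ndufa4 1.68. Cycs and Cox7b, below the 25% of cells asked for, had 54 and 3 UMIs in WT and 140 and 25 in KO. The other somatic forms were short of 1.5-fold, with Cox6b1 at 0.53 (0.36 to 0.71) and Cox8a at 0.22 (-0.03 to 0.47). Cox6b1 had a ratio of 1.52 (1.00 to 2.07) in late-stage round spermatids, from 43 and 111 UMIs, and Atp5d (0.97) and Ndufa10 (0.64, or 0.58 with equal weight per cell) were the other higher members. Leydig transcripts moved with this difference, at 4.82 CPM in WT and 144 CPM in KO late spermatocytes and at 4.70 and 57.8 CPM in late-stage round spermatids, and the KO library held 1183 Leydig cells against 96. Their part in these ratios was not tested. In sperm Ndufa8 (1.132, 0.95 to 1.32), Atp5s (0.87, 0.71 to 1.03) and Cox7c (0.63, 0.54 to 0.71) were higher, at 17.7, 26.8 and 97.7 CPM in WT and 38.7, 49.0 and 151 in KO. Cox7c shares 24.4% of its 3′ words with rows that held 800 UMIs in WT and 728 in KO, against 53281 and 65734 of its own. With equal weight for each of the 3 sperm clusters these ratios were 0.78, 0.57 and 0.50, so that 1 member was past the size.

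Ndufs6 was lower in KO in every germ cell class after spermatogonia. It encodes a zinc-binding accessory subunit of complex I and lies at chr13:73319838-73328542 on the minus strand. It had 274 CPM in WT and 284 CPM in KO spermatogonia, 365 and 249 in early spermatocytes, and 529 and 495 in late spermatocytes. In early-, mid- and late-stage round spermatids it had 275 and 224, 177 and 119, and 135 and 83.4 CPM, and in sperm 62.0 and 36.5 CPM. The log2 ratios were 0.05 (-0.10 to 0.21), -0.55 (-0.80 to -0.29), -0.09 (-0.15 to -0.04), -0.30 (-0.36 to -0.23), -0.58 (-0.66 to -0.49), -0.70 (-0.88 to -0.52) and -0.76 (-0.91 to -0.62) in this order. In the 4 last classes it had the lowest ratio of the members detected in 25% or more of cells, though in early-stage round spermatids Ndufs8 and Cox6a1 were as low (-0.29), and in late-stage round spermatids and sperm it was the only member lower by 1.5-fold. All 8 clusters of round spermatids and sperm gave a ratio below 0, from -0.95 to -0.27. Over the alternatives run the ratio in late-stage round spermatids was -0.73 to -0.65 and in sperm -0.77 to -0.70. In Leydig cells the ratio was -0.19 (-0.34 to -0.05), and in Sertoli cells 0.56, below the shift of all genes. Of the 75-base words at its 3′ end 1.49% are shared with Ndufs6b.

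**Figure D5:**
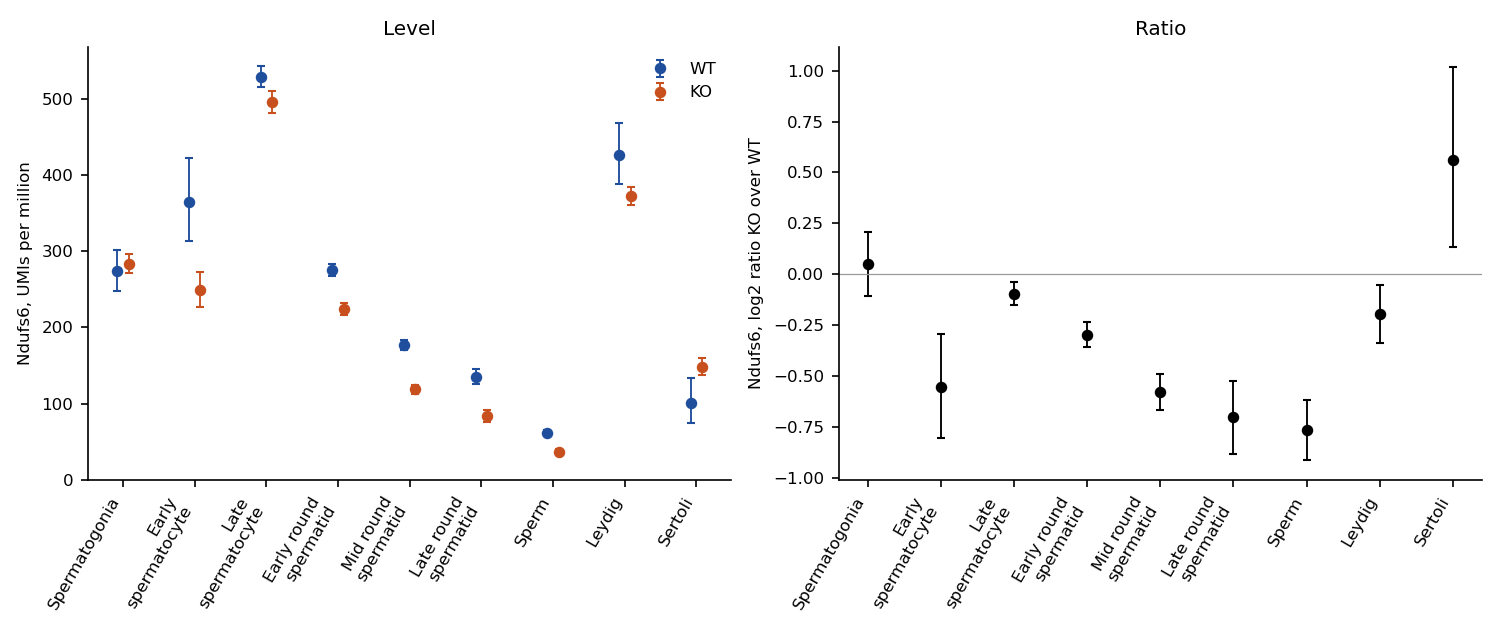
CPM of Ndufs6 by class in WT (blue) and KO (orange), on the left, and the log2 ratio of KO over WT on the right, both with exact 95% intervals for counting error. From late spermatocytes (529 and 495 CPM) to sperm (62.0 and 36.5 CPM) KO lies below WT, with ratios from -0.09 to -0.76.

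The other members named by their ratios were short of 1.5-fold. In early-stage round spermatids Ndufb3 (0.37), Ndufc2 (0.31) and Ndufs1 (0.28) had the highest log2 ratios. In mid-stage ones Ndufs4 (-0.36) and Cox6c (-0.35) were next, and Ndufb3 (0.48), Ndufa11 (0.40) and Uqcrh (0.31) highest. Ndufb5 (-0.53) and Ndufs4 (-0.48) followed Ndufs6 in late-stage round spermatids, and Atp5g1 (-0.44) and Sdhb (-0.34) in sperm. In late spermatocytes the lowest were Cox5a (-0.26), Ndufaf8 (-0.21) and Uqcrc1 (-0.18). Cox7a2l (0.24) and Sdha (0.21) were the highest in Leydig cells.

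Genes that serve the chain from outside it were taken from lists of assembly factors, carriers, pyruvate dehydrogenase, the citric acid cycle and transcription regulators, with 76 of 78 genes in the tables. Their counts past 1.5-fold are to be read beside the shares of all genes given above for each class. They were 2 of 40 in spermatogonia (Coa5 and Coa7, higher), 7 of 36 in early spermatocytes (8.16% of all genes higher and 10.3% lower), 1 of 38 in late spermatocytes (Ogdh, lower), 2 of 28, 1 of 31 and 1 of 19 in the round spermatid classes, 2 of 6 in sperm (16.4% higher and 3.81% lower) and 2 of 36 in Leydig cells (Slc25a3 and Ogdh, lower). Nubpl, an iron-sulphur protein that assembles complex I, was higher in KO in all 3 round spermatid classes, with 61.3 and 110 CPM early, 116 and 205 CPM in the middle and 16.0 and 32.3 CPM late. Its log2 ratios were 0.84 (0.73 to 0.95), 0.82 (0.74 to 0.91) and 1.01 (0.62 to 1.41). In the same classes Ndufs6, a subunit of that complex, was lower. Slc25a31, the germ cell carrier of ADP and ATP, was the other higher gene in early-stage round spermatids (50.8 and 80.4 CPM). Vdac3, a porin of the outer membrane, had 20.2 CPM in WT and 52.1 CPM in KO sperm, a ratio of 1.37 (1.20 to 1.53), and Coa5, an assembly factor of complex IV, had a ratio of 0.85. These sperm ratios are not given by cluster, and the makeup of the class differed between the libraries. In early spermatocytes Cox10, Cmc2 and Gabpa were higher, and Pdha2, Dlat, Idh3b and Tfam lower. In Sertoli cells 25 of 34 were higher and 2 lower (Lyrm7 and Tfam), beside the shift of all genes.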

How the data were processed

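Single testis cells of 1 WT and 1 KO library were captured with the GEXSCOPE kit. Per the labels and methods, the authors took barcode and UMI from read 1, trimmed reads with fastp, aligned read 2 with STAR 2.5.3a and assigned it with featureCounts 1.6.2, and the deposited values are UMI counts per gene and barcode. The methods name a human build, while the symbols are mouse symbols, so gene positions are those of GENCODE M21 on GRCm38, matched by symbol for all 94 members, and promoters those of RefSeq on GRCm38.p6. Which barcodes entered the tables is not stated. All barcodes had over 500 genes.

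Integration and clustering of the libraries used Seurat 5.3.0 under R 4.3.3, with the Matrix package 1.6.5 (2000 variable features less the 17 members among them, 20 anchor dimensions, 30 principal components, resolution 0.3, seed 1). A marker counted as detected with a UMI in 10% of the cells of a cluster and a 2-fold higher level than elsewhere, and a name needed 3 of them. The germ cell markers came in part from the study's tables of these libraries. Scrublet in scanpy 1.11.5 called 244 WT and 345 KO barcodes doublets, which were kept, and their removal was an alternative. Sums were made in Python 3.11.15 with pandas 2.3.3 and numpy 2.4.6, intervals with scipy 1.17.1 and figures with matplotlib 3.10.9. For a log2 ratio the 95% interval is exact and conditions on the total of both Poisson sums. The counting of genes past 1.5-fold was tested on simulated data. Thinning left out 362 WT and 914 KO cells.

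Genes were named by rule: all subunit forms, the 3 highest and the lowest member of each complex in WT, the 3 largest ratios in each direction per class with at least 100 UMIs, the 5 most and 5 least variable members over the WT germ cell classes, and listed pathway genes past 1.5-fold. Ndufv3 was named after its values were seen. With 1 library per genotype no test was made. Alternatives changed the clustering, the cell filters, the totals, the weight of cells and clusters, and the limits of 1.5-fold and 25% of cells. Members and lists were chosen with earlier results of these data known. The 8 -ps symbols held 74 WT and 90 KO UMIs and were left out.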

Additional observations from a re-analysis of the deposited data

How the results depend on the processing

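Counts of members past 1.5-fold were within 1.5 times the reported ones in 149 of 180 recomputed values, form shares moved by less than their interval in 46 of 56, and ratios of single members in 353 of 378, while the summed shares of members stayed within their intervals in 8 of 28 and moved in 20. No paired analysis was possible because there is 1 library per genotype, and for the same reason no replicate could be left out. Shares of members in WT late spermatocytes (4.17%) and sperm (0.453%) were 4.10 and 0.449% at resolution 0.8, 4.10 and 0.450% with members among the clustering features, 4.18 and 0.450% without doublets, 4.46 and 0.465% with totals free of mitochondrially encoded and ribosomal protein genes, 4.11 and 0.439% with equal weight per cell, and 4.22 and 0.435% with equal weight per cluster, and sperm with over 1000 genes gave 0.457%. At resolution 0.8, 1 member was lower in KO Leydig cells in place of 4, and the ratios of Cox7b2 (0.52) and Cox8c (0.13) were reversed from -1.18 and -1.43, the WT cells of the class being 77 in place of 96. With totals free of mitochondrially encoded and ribosomal protein genes 1 member was lower in Sertoli cells in place of 3. At a CPM ratio of at least 2, 18 members were higher and 0 lower in Sertoli cells. Counts summed over the germ cell classes, where a member counts once in each class, were then 3 higher and 3 lower in place of 12 and 10. With a UMI in at least 10% of cells, 1 member was higher in Leydig cells, and the summed count of higher members over the germ cell classes was 25. With members among the clustering features 11 members were lower and 3 higher in early spermatocytes, in place of 5 and 1. Except where the cells are given, the cause was not tested. Shares of all genes under these alternative settings are not given, so these counts are not read as results about the members. Counting error limits Cox7b in WT late spermatocytes, with 3 UMIs, and the WT Leydig and Sertoli cells, with 96 and 48 cells.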

Other observations

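Genes outside the chain also had a germ cell form and a somatic form. Slc25a31, the germ cell carrier of ADP and ATP, had 341 CPM in WT spermatogonia, 599 in early spermatocytes, 143 in late spermatocytes and 3.77 in Leydig cells. Slc25a4, a somatic form, had 15.7, 4.08, 0.614 and 428 CPM in these classes. In KO Slc25a31 had 401 CPM in spermatogonia and 620 CPM in early spermatocytes, against 27.1 and 13.9 CPM for Slc25a4. Slc25a31 was thus the higher form in spermatogonia of both libraries, and in WT its level was lower in late spermatocytes, where Cyct, Cox8c, Cox6b2 and Cox7b2 were highest. Pdha2, the autosomal copy of a pyruvate dehydrogenase subunit, had 47.8 CPM in WT spermatogonia and 268 CPM in late spermatocytes, while Pdha1 on the X chromosome had 7.51 CPM in spermatogonia and 0 UMIs in WT late spermatocytes. In WT Leydig and Sertoli cells Pdha2 had 40.5 and 27.8 CPM, so its level in spermatogonia was near that in somatic cells and is read as background.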
